A study of Mus musculus with 64 samples.

Results

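Protein-folding genes were followed in bone marrow-derived macrophages (BMMs) of wild-type and aryl hydrocarbon receptor (AhR) deficient mice that met a bacterial stimulus with or without prior exposure to AhR ligands. The set held 44 genes, listed by name: 16 chaperones and folding enzymes of the endoplasmic reticulum (ER), 8 genes of the unfolded protein response (UPR) and its ATF4 branch, 9 cytosolic heat shock proteins and cofactors, the 8 subunits of the cytosolic CCT ring and 3 mitochondrial chaperones. All 44 were found among the 55487 genes of the count files, Ddit3 at 2 annotated loci of which the one with counts was used, and all 44 were among the 14537 genes tested. RNA-seq read counts per gene came from 64 libraries in 16 groups of 4. The groups crossed genotype (Ahr+/+ or Ahr-/-) and time (3 h or 20 h) with 4 conditions: DMSO without activation, DMSO with hk S.E. (heat-killed bacteria, Salmonella enterica Serovar Enteritidis), BaP with hk S.E. and I3C with hk S.E.

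Every culture, controls included, was first kept for 6 h with its ligand or solvent: benzo[a]pyrene (BaP, 1 µM), a polycyclic aromatic hydrocarbon, indole-3-carbinol (I3C, 10 µM), a plant-derived AhR ligand precursor, or 0.01% DMSO alone. Activated cultures then received 10000000 hk S.E. per ml, and time counts from that addition. The Ahr+/+ mice were female C57BL/6JRj. The Ahr-/- mice carried a germline deletion present in all cells and had been back-crossed to that strain in-house. Both were used at 8 to 12 weeks of age, with marrow of 4 mice per genotype, grown into BMMs in medium with L929-cell supernatant as the source of M-CSF. In bulk cultures such as these, fewer cells that express a gene and less RNA per cell cannot be told apart.

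Secretory and membrane proteins fold in the ER with the help of the Hsp70-type chaperone BiP (Hspa5), lectin chaperones and protein disulfide isomerases. When unfolded proteins accumulate there, the sensors IRE1 (Ern1), PERK (Eif2ak3) and ATF6 start the UPR: IRE1 splices the mRNA of the transcription factor XBP1, ATF6 is cleaved into a transcription factor, and PERK slows translation while favouring that of ATF4. ATF4 is also raised by amino acid shortage and other stresses, together called the integrated stress response, and it drives CHOP (Ddit3), Trib3, Chac1 and the amino acid synthesis gene Asns. Cytosolic proteins fold with Hsp70 (Hspa8), Hsp90 and the CCT ring, whose stress-inducible forms are driven by HSF1, and Hsp90 also holds the unliganded AhR in the cytosol. Splicing of Xbp1, cleavage of ATF6 and translation of Atf4 are not visible in read counts per gene.

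The libraries held 12152496 to 50644601 counted read pairs, except the fourth unactivated Ahr+/+ library at 20 h with 233047331, and values are given as CPM, the read count relative to the TMM-scaled library size. The macrophage markers were expressed as the label says (8 of 8, summed 18610 to 35730 CPM over all libraries), while no T, NK or erythroid marker reached 1 CPM in any library. The B cell list, mostly Ighm without activation, summed to 52.7 to 62.5 CPM in unactivated and 0.873 to 1.08 CPM in activated Ahr+/+ BMMs at 20 h, and Cd79a and Ms4a1 lay near 0. The neutrophil list summed to 9.12 to 27.8 CPM with hk S.E. against 1.23 to 7.35 CPM without in Ahr+/+ BMMs at 3 h. Ltf (mean 14.2 against 4.36 CPM) and Camp (4.19 against 0.419 CPM) carried that rise, and Ly6g, Mpo and Elane lay near 0. The fibroblast list was higher in several Ahr-/- libraries, at 0.557 to 7.88 CPM against 0.314 to 0.71 CPM in Ahr+/+ BMMs without activation at 20 h and 0.498 to 3.64 against 0.113 to 0.415 CPM with hk S.E. at 3 h, while with hk S.E. at 20 h the ranges overlapped (1.54 to 3.99 and 1.7 to 2.71 CPM). Its genes were not alike there. In DMSO group means Col1a1 (0.79 against 0.24 CPM) and Col1a2 (0.84 against 0.26 CPM) were higher in Ahr-/- BMMs. Dcn was lower (0.85 against 1.73 CPM), and Lum lay at 0.19 CPM in both genotypes. The dendritic cell list with hk S.E. at 20 h summed to 0.075 to 0.442 CPM in Ahr-/- and 0.859 to 1.83 CPM in Ahr+/+ BMMs. Flt3 and Zbtb46 carried that sum, and Cd209a, Xcr1 and Siglech lay near 0. Whether these minor signals had any part in the results was not tested. Activation was plain in Il6, at 332 to 595 CPM with hk S.E. at 20 h against at most 0.0202 CPM without in Ahr+/+ BMMs. Ahr read counts did not fall in Ahr-/- BMMs (21.3 to 28.1 CPM against 11.9 to 14.9 CPM in activated DMSO controls at 20 h), and a count over the whole gene does not check a deletion of part of it. The AhR target Ahrr checked the labels instead: with BaP at 20 h it lay at 17.2 to 20.7 CPM in Ahr+/+ and 0.656 to 1.18 CPM in Ahr-/- BMMs.

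Promoter sequences are shown for some of the members in which a known response element was found. RefSeq promoter windows of 300 bases (250 before and 50 after a start, build GRCm38.p6) were available for 35 of the 44 members. The ER stress response element, CCAAT and CCACG spaced by 9 bases, was searched on both strands. It was present in 7 of 35 members and in 0.119% of 32851 windows of all genes. The 7 were all ER folding genes: Hspa5, Hsp90b1, Calr, Canx, Creld2, Dnajc3 and Pdia6. In the whole Hspa5 window below (chr2:34771840-34772139, plus strand), capitals mark the element, which runs from -65 to -47 relative to the RefSeq start.
Hspa5: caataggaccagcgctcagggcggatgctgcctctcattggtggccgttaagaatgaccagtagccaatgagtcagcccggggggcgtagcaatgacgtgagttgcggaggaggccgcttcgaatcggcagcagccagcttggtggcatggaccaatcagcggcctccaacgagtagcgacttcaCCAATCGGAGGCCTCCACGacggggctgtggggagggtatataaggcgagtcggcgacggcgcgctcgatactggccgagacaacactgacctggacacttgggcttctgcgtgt

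The same element (capitals, with 20 bases on each side) is shown for the member with 2 copies, Hsp90b1 (chr10:86705618-86705676, minus strand, and chr10:86705513-86705571, minus strand), and for Canx (chr11:50325780-50325838, minus strand). The second Hsp90b1 copy is in the reverse orientation. A short form, ATTGG and CCACG spaced by 1 base, was present in 0.0365% of all windows and in 2 members, Dnajb11 and Herpud1, of which Herpud1 is shown (chr8:94386357-94386407, plus strand).
Hsp90b1 copy 1: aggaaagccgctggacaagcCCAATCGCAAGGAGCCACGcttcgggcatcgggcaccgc
Hsp90b1 copy 2: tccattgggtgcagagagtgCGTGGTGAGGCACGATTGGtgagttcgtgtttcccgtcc
Canx: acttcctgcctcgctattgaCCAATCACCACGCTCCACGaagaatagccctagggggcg
Herpud1: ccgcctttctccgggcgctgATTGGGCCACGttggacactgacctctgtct

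The core bound by ATF4 with C/EBP partners, TGATGNAA on either strand, was searched after the values of the ATF4 targets had been seen. It was present in 3.97% of all windows and in 4 members, Trib3 (chr2:152344019-152344066, minus strand), Asns (chr6:7693205-7693252, minus strand), Chac1 (chr2:119351029-119351076, plus strand) and Herpud1 (chr8:94386297-94386344, plus strand). Capitals mark it here.
Trib3: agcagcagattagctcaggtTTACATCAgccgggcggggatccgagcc
Asns: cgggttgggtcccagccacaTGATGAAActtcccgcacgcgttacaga
Chac1: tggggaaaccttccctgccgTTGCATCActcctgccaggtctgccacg
Herpud1: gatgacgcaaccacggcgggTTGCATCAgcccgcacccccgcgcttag

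A heat shock element of 3 alternating GAA and TTC units spaced by 2 bases was present in 0.603% of windows and in 3 members. Hspd1 and Hspe1 share 1 such stretch, since these mitochondrial chaperone genes lie head to head on chromosome 1 (shown as read for Hspe1, chr1:55088039-55088091, plus strand), and the third was Hsph1 (chr5:149636268-149636320, minus strand). Capitals mark 3 units. In Hspe1 they mark the match from -89 to -77, and an overlapping match from -84 to -72 runs on into the lower case. The AhR response element core GCGTG was present in 28 of 35 members (80%) against 35.2% of the gene symbols with a window. Searched on 1 strand only, it was present in 51.4% of members and 22.1% of symbols. The shares of symbols are over 27025 symbols, more than the 14537 genes tested here, whereas all members were among the genes tested. A share over the tested genes alone was not taken, so nothing is read from the difference. These matches are letters in a window and were not measured as bound sites.
Hspe1: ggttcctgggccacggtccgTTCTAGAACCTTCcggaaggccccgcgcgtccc
Hsph1: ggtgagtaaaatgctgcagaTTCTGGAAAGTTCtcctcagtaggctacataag

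Before activation the most abundant members per transcript length (RPKM, counts scaled to exon length and library size, means of 4 Ahr+/+ libraries at 20 h) were Hspa8 at 326, Hsp90ab1 at 299 and the ER lectin chaperone Calr at 248. The disulfide isomerases Pdia3 and P4hb followed at 167 and 163, and Hspa5 and its Hsp90-type neighbour Hsp90b1 at 136 and 138. The UPR genes were lower, with Atf4 at 49.2, Xbp1 at 34.1, Ddit3 at 7.21, Ern1 at 6.34, Trib3 at 1.65 and Chac1 at 0.0988. Some members held nearly constant across the 16 groups and others did not. The group mean of Dnajc3 varied by 1.37-fold and that of Hspa4 by 1.44-fold, whereas that of Ddit3 varied by 27.4-fold, that of Asns by 36.8-fold and that of Trib3 by 83.8-fold.

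**Figure D1:**
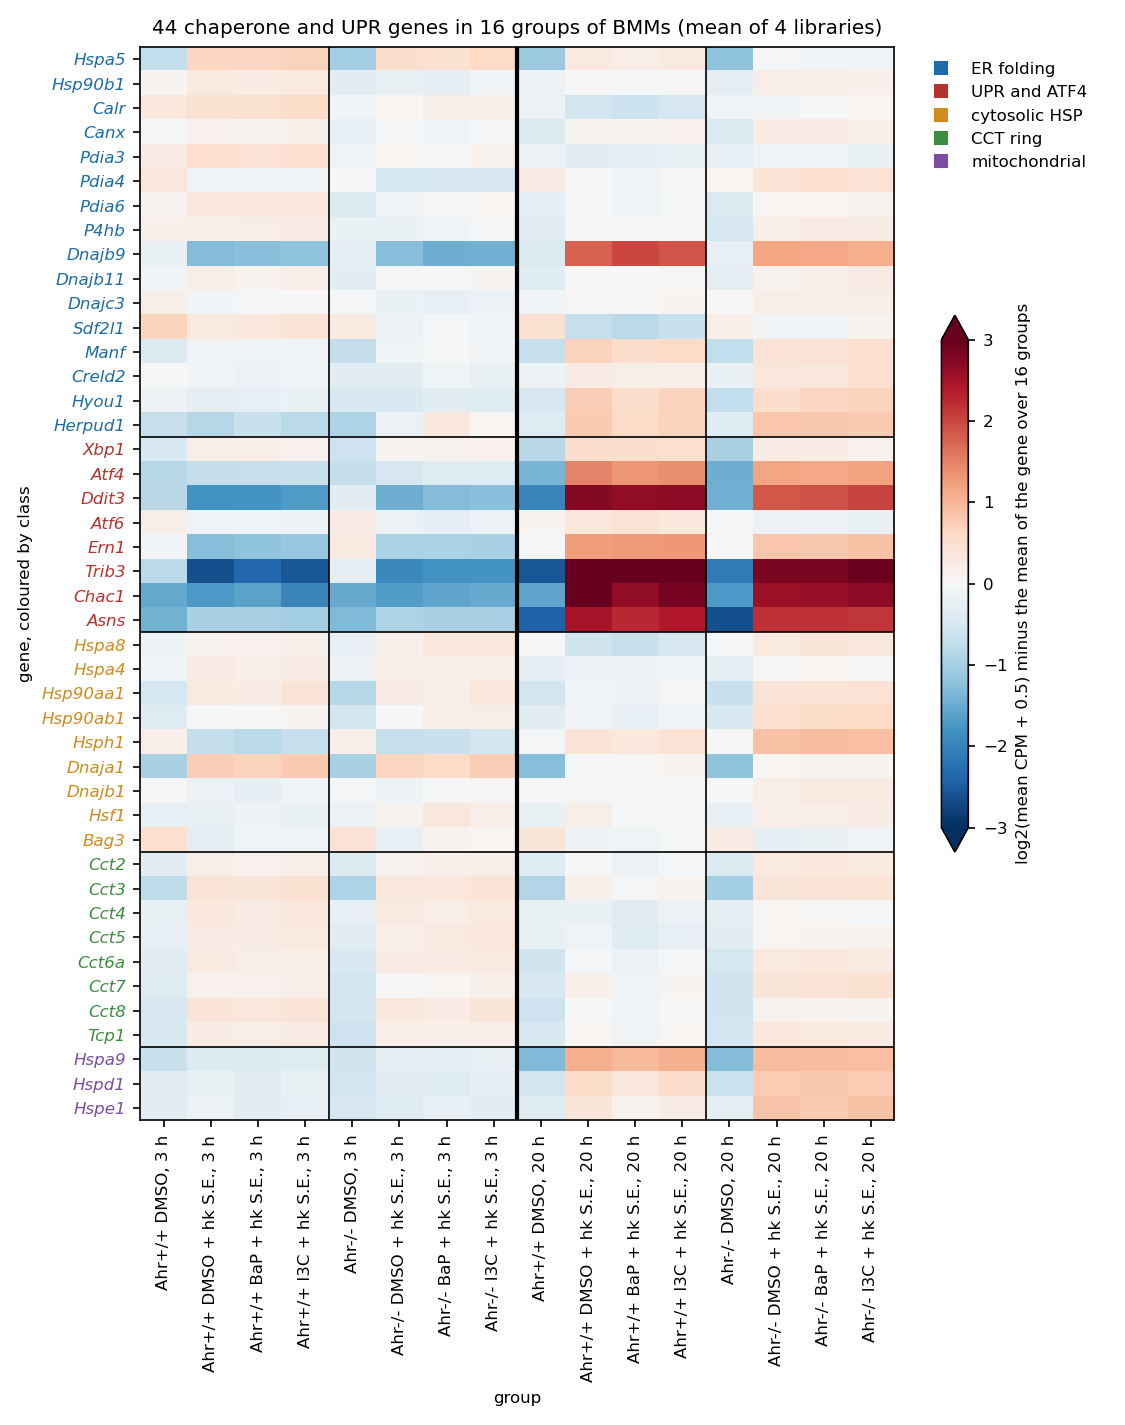
Level of each of the 44 members (rows, by class) in the 16 groups (columns), as log2 of the mean CPM plus 0.5, minus the gene's mean over the groups, drawn from -3 to 3 (values beyond are shown at the limit). The UPR rows Atf4, Ddit3, Trib3, Chac1 and Asns and the mitochondrial row Hspa9 are highest in the activated groups at 20 h, and the columns of DMSO, BaP and I3C with hk S.E. look alike within a genotype and time.

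To ask how activation alone moves these genes, DMSO cultures with hk S.E. were compared with unactivated DMSO cultures at the same time (edgeR quasi-likelihood test on all 14537 genes, called at a Benjamini-Hochberg adjusted p below 0.01, with ± the standard error of the log2 fold change). In Ahr+/+ BMMs at 3 h, 16 of 44 members were called higher and 8 lower, where 24.2% and 32.3% of all tested genes were. At 20 h, 27 were higher and 3 lower, beside 29.9% and 28.7% of all genes. The classes did not move alike. All 8 CCT subunits were higher at 3 h, 3 of the 8 UPR genes were lower at 3 h and 7 of the 8 were higher at 20 h. The median log2 fold change of the UPR genes went from -0.59 at 3 h to 3.82 at 20 h, against -0.10 and 0.00 over all genes.

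**Figure D2:**
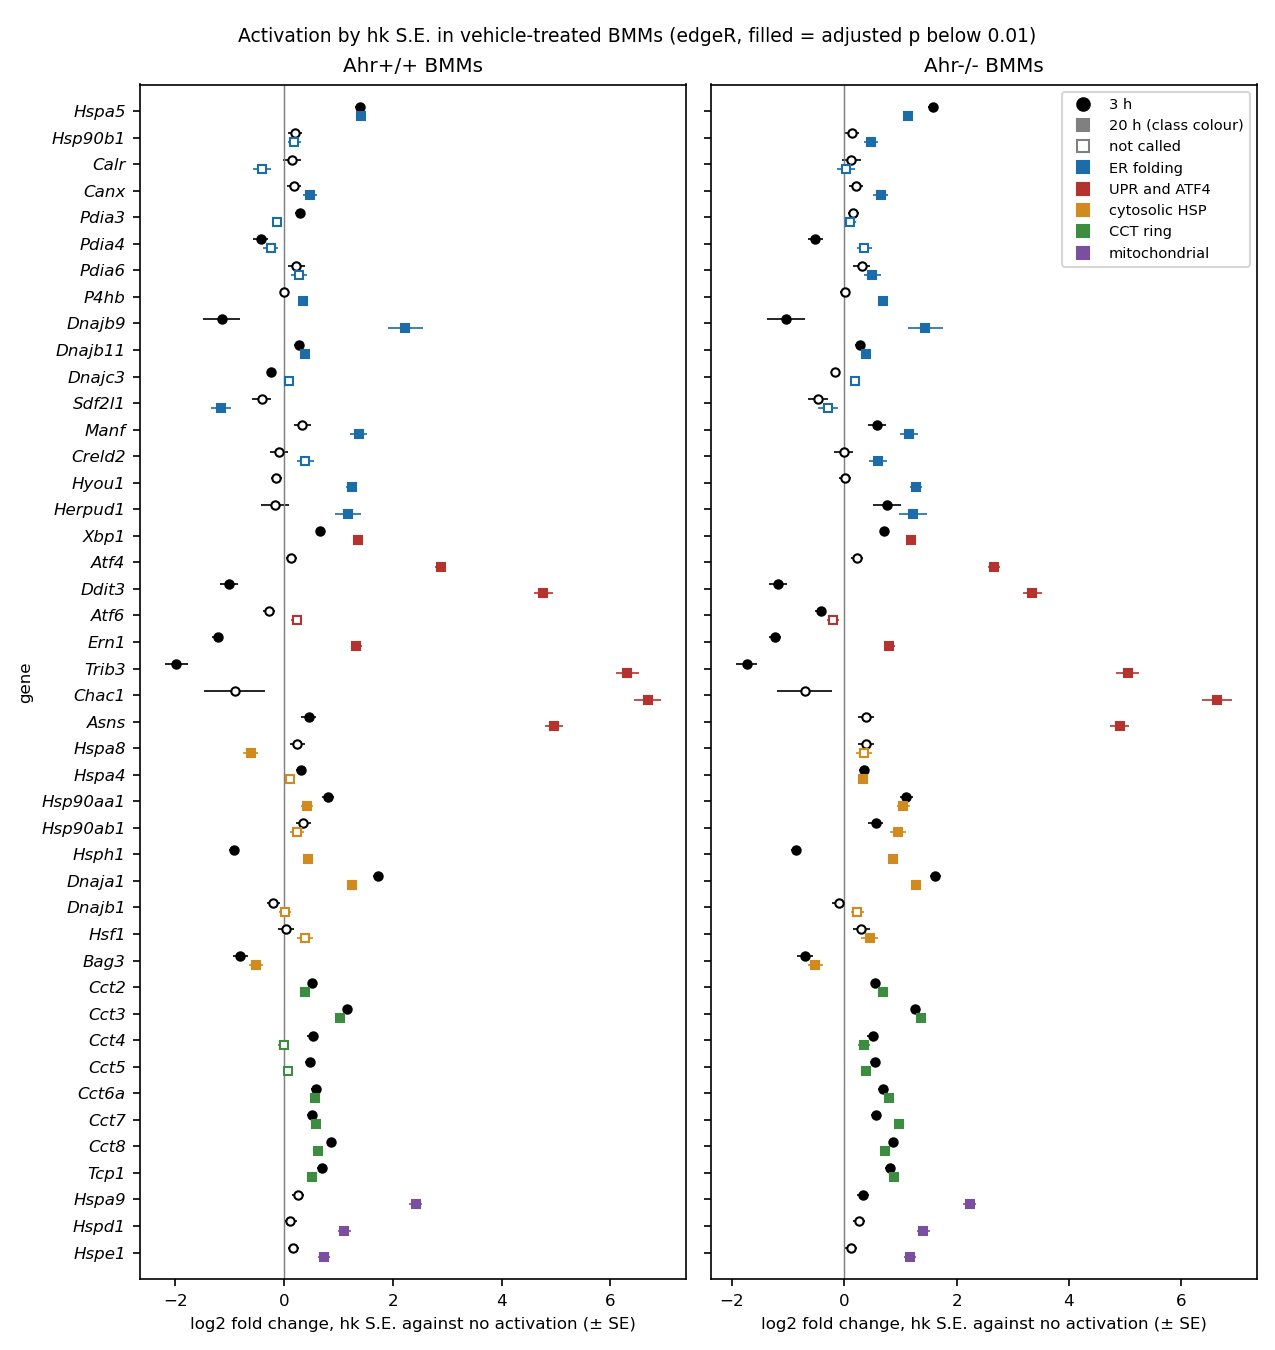
Log2 fold change of each member with hk S.E. against no activation in DMSO cultures, at 3 h and 20 h in Ahr+/+ and Ahr-/- BMMs, with bars of 1 standard error, members grouped by class and called members filled. The UPR genes at 20 h reach from 0.23 (Atf6) to 6.68 (Chac1) in Ahr+/+ BMMs, while most ER folding and cytosolic members lie within 1.5 of 0.

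The ATF4 branch gave the steepest late rise. Trib3, a pseudokinase that binds AKT and ATF4, lay at 3.03, 2.83, 4.72 and 3.44 CPM in the 4 unactivated and 278, 279.5, 248 and 303 CPM in the 4 activated Ahr+/+ libraries at 20 h. At 3 h the order was the reverse, with 12.6, 9.28, 20.1 and 10.1 CPM without and 3.8, 2.66, 3.95 and 2.85 CPM with hk S.E. The groups were apart at both times, low to high at 20 h and high to low at 3 h. Trib3 thus fell by 1.97 ± 0.21 (log2, adjusted p = 3.25e-12) at 3 h and rose by 6.31 ± 0.21 (adjusted p = 2.31e-32), or 79.3-fold, at 20 h. Ddit3, which encodes the pro-apoptotic transcription factor CHOP, followed the same course. It lay at 27.7, 21.6, 36.5 and 25 CPM without and 16.9, 13.1, 14.6 and 10.6 CPM with hk S.E. at 3 h, and at 11.5, 12.4, 12.2 and 13.4 against 349, 301, 292 and 410.5 CPM at 20 h. Neither pair of groups overlapped, and Ddit3 fell by 1.00 ± 0.17 (adjusted p = 4.76e-07) before it rose by 4.77 ± 0.18 (adjusted p = 3.3e-30).

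Asns, the asparagine synthetase, was already a little higher at 3 h, at 19.8, 16, 23 and 20.2 CPM without and 26.3, 27.4, 28.6 and 25.5 CPM with hk S.E. (0.45 ± 0.14, adjusted p = 0.00527). That call at 3 h was lost without the first (adjusted p = 0.0114) or the second (adjusted p = 0.0408) unactivated library. At 20 h it lay at 9.73, 9.24, 9.12 and 10.2 against 288, 294, 263 and 349 CPM, every activated library far above every control (4.96 ± 0.16, adjusted p = 7.39e-33, 31.1-fold). Chac1, which degrades glutathione, was nearly silent except in activated BMMs at 20 h. Its CPM there were 16.2, 17.5, 13.8 and 14.4 against 0.0698, 0.346, 0.106 and 0.125 without hk S.E. (6.68 ± 0.25, adjusted p = 2.58e-29), and its read counts at 3 h were 3, 9, 5 and 2 without and 3, 1, 0 and 2 with hk S.E., too few to tell a change (-0.90 ± 0.56, adjusted p = 0.192). Atf4 itself, the transcription factor above these genes, had means of 169 ± 30.9 and 186 ± 12.8 CPM (SD, n = 4) at 3 h (0.14 ± 0.10, adjusted p = 0.241). At 20 h its means were 116 ± 8.06 and 853 ± 92 CPM (SD, n = 4), a rise of 2.88 ± 0.11 (adjusted p = 3.01e-30).

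The IRE1 arm moved less. Ern1, the gene of the sensor IRE1, lay at 48, 51.3, 60 and 46.6 CPM without and 23.4, 22.1, 22.8 and 20.2 CPM with hk S.E. at 3 h, all activated libraries below all controls (-1.22 ± 0.11, adjusted p = 5.74e-15). At 20 h the activated libraries were the higher ones, at 133, 140.4, 130.4 and 117 against 52.3, 52.9, 55.7 and 46.6 CPM (1.33 ± 0.10, adjusted p = 6.85e-17). Its substrate Xbp1 rose at both times, by 0.67 ± 0.0683 (adjusted p = 1.22e-12) at 3 h and 1.37 ± 0.0691 (adjusted p = 1.22e-24) at 20 h. Atf6, the third sensor, was not called at either time (-0.27 ± 0.10, adjusted p = 0.0184 at 3 h and 0.23 ± 0.10, adjusted p = 0.0427 at 20 h).

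**Figure D3:**
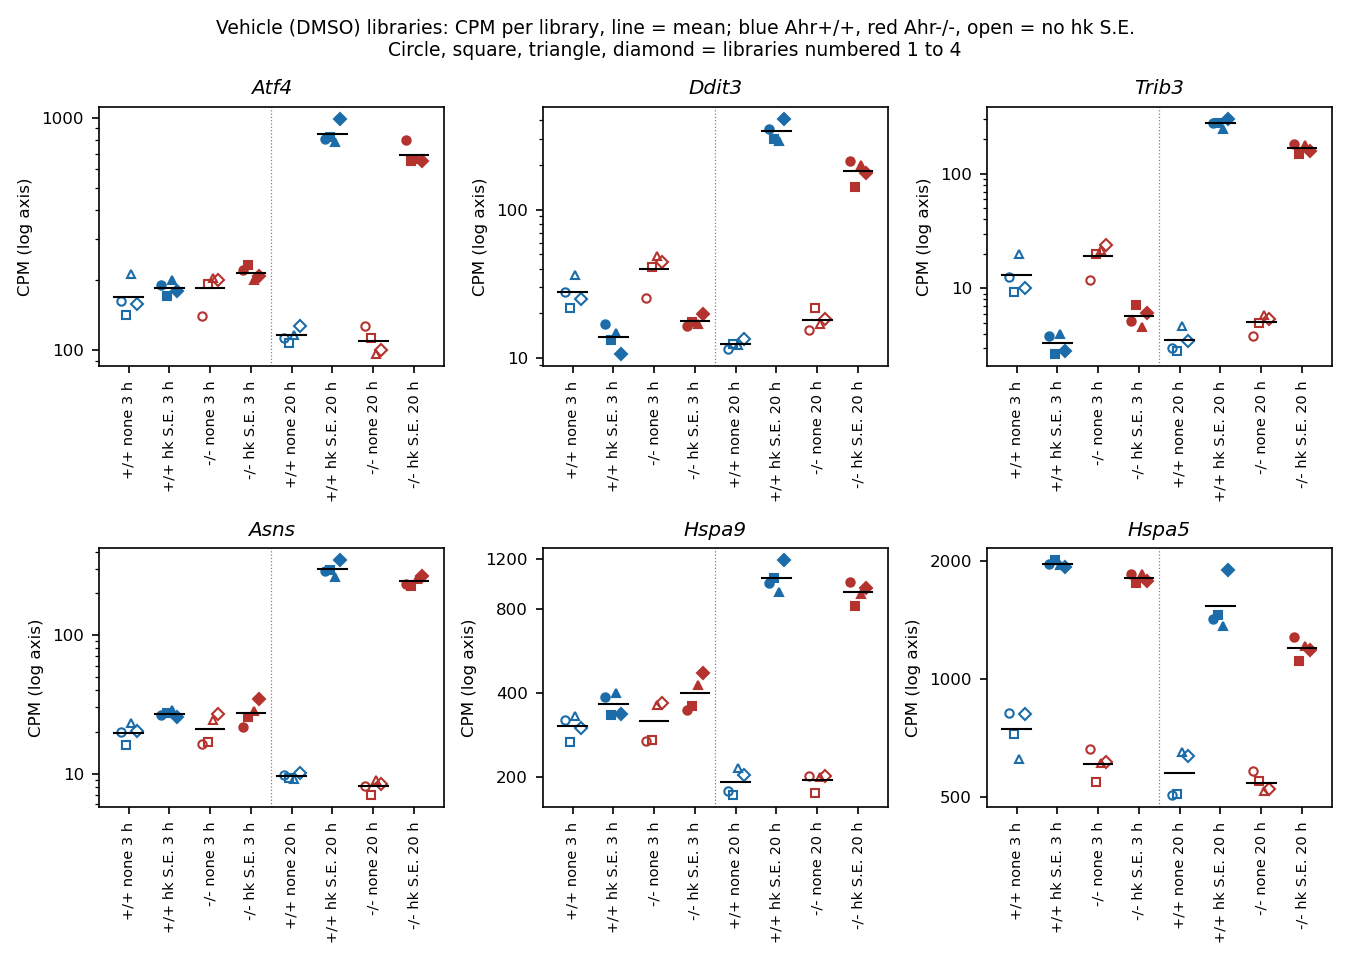
CPM (log axis) of Atf4, Ddit3, Trib3, Asns, Hspa9 and Hspa5 in the unactivated and activated DMSO libraries of both genotypes at 3 h and 20 h, one point per library and a line at the mean of 4. Ddit3 and Trib3 are lower with hk S.E. at 3 h and higher at 20 h, while Hspa5 is higher at both times.

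Among the ER chaperones, BiP stood out from its class by rising early. Hspa5 lay at 815, 722, 625 and 813 CPM without and 1965, 2009, 1943 and 1927 CPM with hk S.E. at 3 h. At 20 h the values were 504, 506, 649.5 and 634 and 1415, 1455, 1359 and 1896 CPM. All activated libraries lay above all controls at both times, a rise of 1.40 ± 0.0895 (adjusted p = 2.68e-20, 2.64-fold) at 3 h and 1.42 ± 0.0895 (adjusted p = 1.55e-20, 2.67-fold) at 20 h. Of the 16 ER folding genes, 3 were called higher and 3 lower at 3 h. The other calls at 3 h were small: the Hsp40-type cochaperone Dnajb11 (0.27 ± 0.0883) and the disulfide isomerase Pdia3 (0.29 ± 0.0951) were higher, and the isomerase Pdia4 (-0.43 ± 0.14) and the BiP cochaperone Dnajc3 (-0.24 ± 0.0712) were lower. The Pdia3 call was lost without unactivated library 2 (adjusted p = 0.0138) or 3 (adjusted p = 0.0638). The third gene to fall was Dnajb9, a BiP cochaperone that restrains IRE1.

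Dnajb9 was the ER folding gene with the widest swing. It lay at 20.3, 28.7, 13.4 and 19.6 CPM without and 7.59, 10.5, 9.41 and 9.76 CPM with hk S.E. at 3 h (-1.14 ± 0.34, adjusted p = 0.00281). At 20 h it lay at 16.5, 20.1, 17.1 and 16.4 against 96.8, 95.2, 50.9 and 85.9 CPM (2.23 ± 0.32, adjusted p = 2.69e-08). The groups did not overlap at either time, and the third activated library at 20 h was the lowest of its 4. The call at 3 h was lost when any of 4 of its 8 libraries was left out (activated library 1, 3 or 4 or unactivated library 2, adjusted p from 0.0106 to 0.0222). At 20 h, 8 ER folding genes were called higher and 1 lower, with a class median of 0.36. Besides Hspa5 and Dnajb9 the higher ones were Manf, a secreted ER stress factor (1.38 ± 0.16), Hyou1, the exchange factor of BiP (1.25 ± 0.11), Herpud1, a part of ER-associated degradation (1.18 ± 0.24), the lectin chaperone Canx (0.48 ± 0.13), Dnajb11 (0.38 ± 0.088) and P4hb (0.35 ± 0.0846). The member that fell was Sdf2l1, a partner of Dnajb11 (-1.16 ± 0.18, adjusted p = 1.53e-07).

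Members with the ER stress response element did not all follow BiP. Of the 7, Hspa5 and Canx were called higher at 20 h in Ahr+/+ BMMs, and Hsp90b1 (0.19 ± 0.13), Calr (-0.40 ± 0.16), Pdia6 (0.28 ± 0.15), Creld2 (0.39 ± 0.16) and Dnajc3 (0.10 ± 0.0706) were not. The 4 members with the ATF4 core were among those called higher at 20 h, but that motif was chosen with their values known, so nothing is read from the count.

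Cytosolic heat shock genes moved in both directions. Dnaja1, the Hsp40 that delivers clients to Hsp70, lay at 87.8, 89, 69.2 and 96.8 CPM without and 282, 294, 268 and 291 CPM with hk S.E. at 3 h, and at 61, 64.2, 74.7 and 75.7 against 157, 167, 139.5 and 189 CPM at 20 h. The activated libraries were the higher ones at both times (1.73 ± 0.0942, adjusted p = 3.14e-23 at 3 h, and 1.25 ± 0.0928, adjusted p = 1.23e-17 at 20 h). Hsph1, a nucleotide exchange factor of Hsp70, went down and then up: 57.2, 54.7, 49.8 and 47.9 CPM without and 27.2, 29.1, 28.6 and 25.5 CPM with hk S.E. at 3 h, and 41.5, 42.8, 48.7 and 43.2 against 63, 56.9, 57.2 and 61.6 CPM at 20 h. Neither pair overlapped (-0.93 ± 0.0885, adjusted p = 1.22e-13 at 3 h, and 0.44 ± 0.0858, adjusted p = 1.24e-05 at 20 h). Bag3, a cofactor of Hsp70 in autophagy, fell at both times, by 0.80 ± 0.14 and by 0.51 ± 0.13.

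Hspa8, the constitutive Hsp70, was not called at 3 h and was lower at 20 h: 1313, 1246, 1132 and 1381 CPM without and 1561, 1506, 1510 and 1426 CPM with hk S.E. at 3 h (0.24 ± 0.14, adjusted p = 0.118), and 1226, 1317, 1462 and 1609 against 897, 804, 968 and 1019 CPM at 20 h (-0.61 ± 0.14, adjusted p = 0.000117). The activated libraries were all above the controls at 3 h and all below them at 20 h. Hsp90aa1, the inducible Hsp90, lay at 208, 201, 165 and 205 CPM without and 339, 324, 370.2 and 334 CPM with hk S.E. at 3 h, and at 170.2, 172, 206 and 219 against 253, 251, 251 and 273 CPM at 20 h. It rose at both times (0.81 ± 0.11, adjusted p = 8.83e-09, and 0.42 ± 0.11, adjusted p = 0.000856), and its constitutive paralogue Hsp90ab1 was not called at either (0.36 ± 0.14 and 0.24 ± 0.14). Of the rest, the Hsp110-type Hspa4 was higher at 3 h (0.31 ± 0.0873), and Dnajb1 (-0.20 ± 0.12 and 0.023 ± 0.12) and the regulator Hsf1 (0.038 ± 0.15 and 0.39 ± 0.15) were not called.

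The CCT ring, which folds actin and tubulin, rose as a whole at 3 h. There its 8 subunits had log2 fold changes of 0.48 to 1.16, all called higher. Cct3 lay at 130.2, 123, 139 and 147 CPM without and 299, 304, 313 and 288 CPM with hk S.E. (1.16 ± 0.0746, adjusted p = 3.72e-20). Cct8 lay at 177, 164, 152 and 169 against 300.1, 299.8, 307 and 302 CPM (0.87 ± 0.0805, adjusted p = 3.98e-14). For both subunits every activated library exceeded every control. At 20 h, 6 of 8 were called higher, with Cct3 at 118, 110.1, 134 and 134 against 239, 226, 251 and 297 CPM (1.03 ± 0.0743, adjusted p = 3.67e-18) and Cct8 at 142, 135, 165 and 154 against 222, 231, 202 and 269.6 CPM (0.63 ± 0.0801, adjusted p = 7.25e-10). Cct4 (-0.0046 ± 0.10) and Cct5 (0.076 ± 0.0892) were not.

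The mitochondrial chaperones were late in Ahr+/+ BMMs. None of the 3 was called there at 3 h (edgeR, where Hspa9 alone had an unadjusted p below 0.05), and all 3 rose at 20 h. Hspa9, the mitochondrial Hsp70, lay at 179, 172, 216 and 204 CPM without and 986, 1026, 918 and 1195 CPM with hk S.E. (2.42 ± 0.11, adjusted p = 3.69e-26, 5.35-fold). Hspd1 (Hsp60) lay at 108, 104, 133 and 138 against 268, 243, 226 and 303 CPM (1.11 ± 0.11, adjusted p = 1.04e-12), and its lid Hspe1 (Hsp10) at 39, 34.1, 40.4 and 41.6 against 66.1, 60.9, 59.8 and 71.5 CPM (0.73 ± 0.11, adjusted p = 2.13e-08). In all 3 the activated libraries lay above the controls without overlap. At 3 h the values of Hspd1 were 151, 138, 122 and 149 CPM without and 152, 144, 164 and 148 CPM with hk S.E., which overlapped.

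The response at 20 h was tested against that at 3 h in the same genotype. In Ahr+/+ BMMs the log2 fold change was greater at 20 h in 17 members and smaller in 5, where 26.5% and 21.3% of all genes were called. In Ahr-/- BMMs the counts were 17 and 1, beside 25.2% and 19.4%. All 8 UPR genes had a greater log2 fold change at 20 h in Ahr+/+ BMMs, from a difference of 0.51 ± 0.15 for Atf6 to 8.28 ± 0.29 for Trib3. All 3 mitochondrial chaperones did too (2.16 ± 0.15 for Hspa9, 0.99 ± 0.16 for Hspd1 and 0.56 ± 0.15 for Hspe1). The 5 members with a smaller one were cytosolic, Hspa8 (-0.85 ± 0.19), Dnaja1 (-0.48 ± 0.13), Cct4 (-0.54 ± 0.15) and Cct5 (-0.41 ± 0.13), or in the ER, Pdia3 (-0.42 ± 0.13). Leaving out 1 library ended the call of Hspe1 (activated library 2 at 3 h, adjusted p = 0.0129) and, for any one of 7 libraries, that of Pdia3 (adjusted p from 0.01 to 0.0293). In Ahr-/- BMMs the member with a smaller one was Hspa5 (-0.44 ± 0.12).

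Other genes of these pathways were read from 132 further genes, of which 126 were tested. In Ahr+/+ BMMs 39 of the 126 were called higher and 30 lower at 3 h, and 73 higher and 20 lower at 20 h. Over all tested genes 24.2% were higher and 32.3% lower at 3 h and 29.9% and 28.7% at 20 h, and the counts of several of the lists that follow lie near those shares. The integrated stress response list had 11 of 27 higher and 10 lower at 3 h and 22 higher and 2 lower at 20 h. Its cystine carrier Slc7a11 rose by 3.26 ± 0.24 and then 6.30 ± 0.28, and Nupr1, a stress-induced chromatin protein, by 3.95 ± 0.15 and 5.64 ± 0.16. Eif2ak3, the gene of PERK, fell by 3.23 ± 0.18 at 3 h and by 0.62 ± 0.15 at 20 h. Sesn2, an ATF4 target that restrains mTORC1, fell by 2.37 ± 0.19 and then rose by 2.23 ± 0.16, as Trib3 and Ddit3 did.

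ER-associated degradation had 6 of 15 tested genes higher and 2 lower at 3 h and 11 higher and none lower at 20 h, where Selenos (2.83-fold) and Derl1 (1.13 ± 0.10), both of the membrane complex that extracts proteins, led. Other ER folding genes had 7 of 27 higher and 5 lower at 3 h and 14 higher and 6 lower at 20 h. The ER oxidase Ero1a rose by 3.33 ± 0.19 and the J-protein Dnajc1 by 3.02 ± 0.14 at 20 h, and Erp29 fell at both times (-0.82 ± 0.15 and -1.08 ± 0.15). Of the 9 other sensors and their partners, 3 were higher and 3 lower at 3 h and 5 higher and 1 lower at 20 h, with Traf2, the adaptor of IRE1, at 2.25 ± 0.0882 and 2.34 ± 0.0875. Other cytosolic cofactors had 9 of 31 higher and 6 lower at 3 h and 13 higher and 8 lower at 20 h. The Hsp40 gene Dnaja2 rose by 2.42 ± 0.12 at 3 h, and the stress-inducible Hspa1b by 4.21 ± 0.33, though Hspa1a and Hspa1b are near-identical and their reads may be split uncertainly. Prefoldin, which feeds the CCT ring, had 1 of 6 higher at 3 h and 2 higher and 1 lower at 20 h. The other mitochondrial genes had 2 of 11 higher and 4 lower at 3 h and 6 higher and 2 lower at 20 h, led by the protease Lonp1 (1.78 ± 0.0894) and the J-protein Dnaja3 (1.32 ± 0.0812).

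In Ahr-/- BMMs the same activation comparison called 18 of 44 members higher and 8 lower at 3 h, where 25.5% and 31.8% of all genes were, and 35 higher and 1 lower at 20 h, where 28.3% and 26% were. Unlike in Ahr+/+ BMMs, Hspa9 was among those called higher at 3 h. That call was lost under several alternatives, such as edgeR without the filter (0.33, adjusted p = 0.0144). At 20 h Trib3 lay at 3.86, 5.01, 5.85 and 5.41 CPM without and 183, 151, 178 and 158 CPM with hk S.E., a rise of 5.05 ± 0.20 (adjusted p = 5.2e-29). Ddit3 lay at 15.5, 21.6, 17 and 18.3 against 213, 143, 201 and 178 CPM (3.35 ± 0.17, adjusted p = 1.34e-24). Both genes rose without overlap of the groups. The lone member called lower was Bag3 (-0.51 ± 0.13), and all 8 CCT subunits were called higher (0.36 to 1.37).

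Whether AhR deletion changed the activation response was tested as a difference of the 2 log2 fold changes. At 3 h no member was called (edgeR, DESeq2 and limma, beside 0.0138% of all genes called by edgeR). There 1 member had an unadjusted edgeR p below 0.05, a level at which the share of all genes is not given here. At 20 h 3 members had a greater and 2 a smaller log2 fold change in Ahr-/- BMMs, where 2.08% and 2.33% of all genes did. Ddit3 (-1.42 ± 0.22, adjusted p = 1.27e-05) and Trib3 (-1.26 ± 0.25, adjusted p = 0.000558) rose less in Ahr-/- BMMs. Hspa8 (0.96 ± 0.19, adjusted p = 0.000579), Hsp90ab1 (0.72 ± 0.19, adjusted p = 0.00988) and Hsp90aa1 (0.63 ± 0.16, adjusted p = 0.00616) had the greater log2 fold change there.

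The values behind these calls showed a split within the Ahr-/- libraries at 20 h. The activation genes Il6, Il1b, Tnf, Nos2 and Il12b also differed there, with a sum of 4411 to 9346 CPM in activated Ahr-/- and 3547 to 4099 CPM in activated Ahr+/+ BMMs, and Il1b alone at 2356 to 6636 against 1610 to 1988 CPM. Its part in the genotype differences was not tested. Hspa8 lay at 1481, 1292, 1266 and 1309 CPM without and 2009, 2043, 1312 and 1473 CPM with hk S.E. in Ahr-/- BMMs. Hsp90ab1 lay at 974, 834, 715 and 716 against 1879, 1778, 1257 and 1373 CPM, and Hsp90aa1 at 198, 149, 184 and 173 against 420.2, 327, 358 and 352 CPM. For Hspa8 and Hsp90ab1 the activated libraries numbered 1 and 2 were the high ones, though those numbered 3 and 4 also exceeded every activated Ahr+/+ library (953, 897, 1216 and 1167 CPM for Hsp90ab1). Dnajb9 was split the other way, with 12.8, 12.2, 26.8 and 27.1 CPM without and 32.1, 28.4, 78.9 and 77.9 CPM with hk S.E. With the Ahr-/- libraries numbered 1 and 2 at 20 h left out, 2 members were called for the difference in response (Ddit3 and Trib3), and with those numbered 3 and 4 left out, 8, not among them Trib3 (-1.05, adjusted p = 0.0345) and Hsp90aa1 (0.69, adjusted p = 0.0229). Newly called among the 8 were the ER folding genes Pdia4 (0.82), P4hb (0.49) and Sdf2l1 (1.01), and Atf6 (-0.54) and Ern1 (-0.62). Leaving out 1 library gave 3 calls without activated library 1 or 2 or unactivated library 3 or 4 of Ahr+/+, or without activated library 1 or unactivated library 2 or 4 of Ahr-/- BMMs, 8 without activated Ahr+/+ library 4 and 10 without activated Ahr-/- library 3. The shares of all genes called in the fits with libraries left out are not given here. Hsp90aa1 lost its call without any one of 8 libraries (adjusted p from 0.0115 to 0.0256) and Hsp90ab1 without any one of 10 (0.0126 to 0.0385). Ddit3, at 349, 301, 292 and 410.5 CPM in activated Ahr+/+ BMMs, was below that range in all activated Ahr-/- libraries, and so was Trib3.

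**Figure D4:**
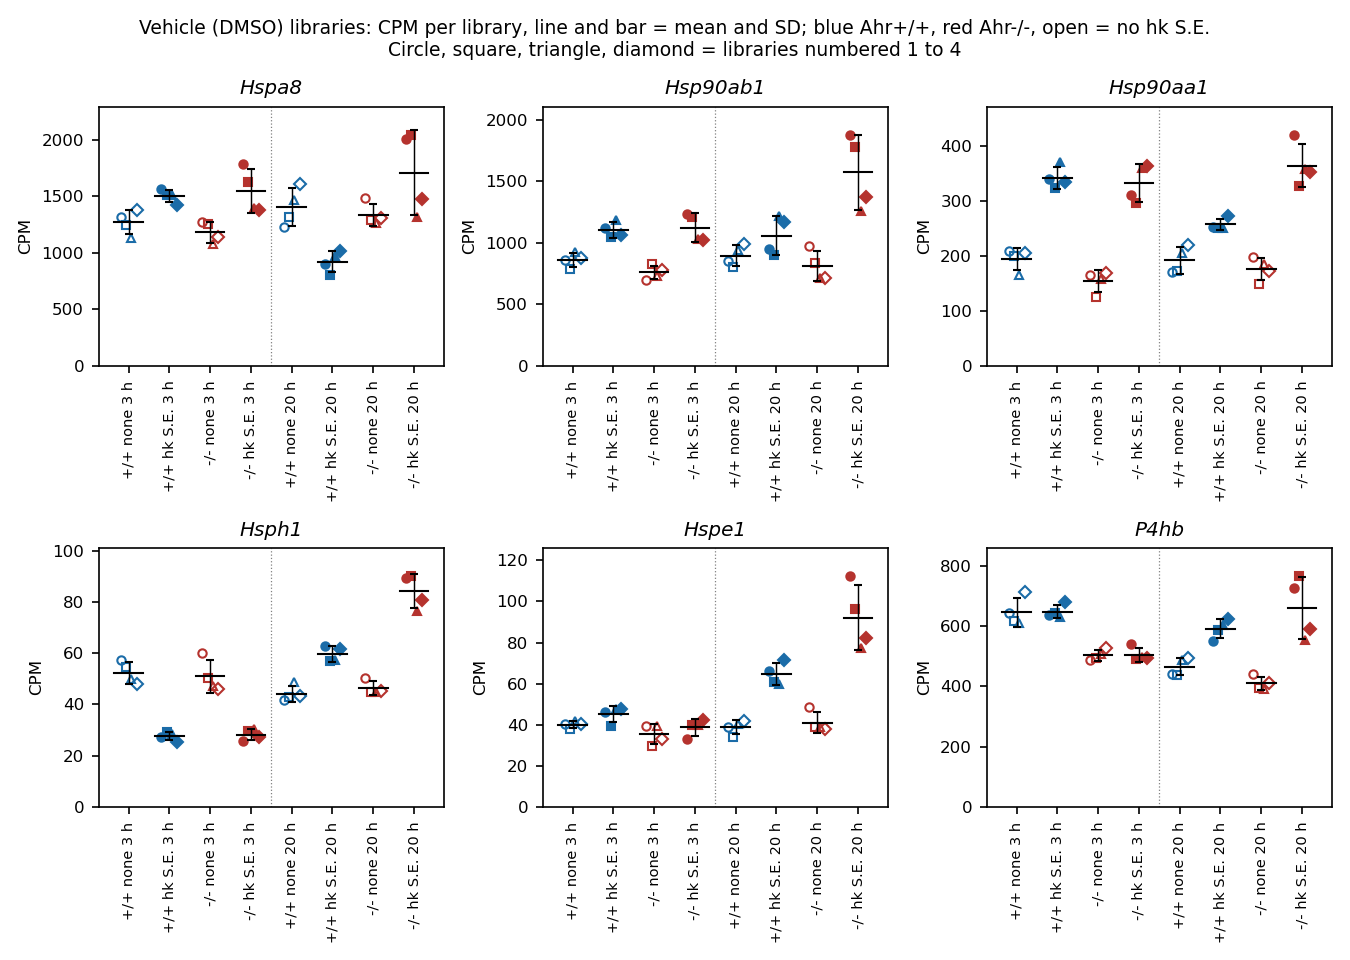
CPM of Hspa8, Hsp90ab1, Hsp90aa1, Hsph1, Hspe1 and P4hb in the unactivated and activated DMSO libraries of both genotypes at 3 h and 20 h, one point per library and a line at the mean of 4. At 20 h with hk S.E. the Ahr-/- libraries of Hspa8 fall into a pair at 2009 and 2043 CPM and a pair at 1312 and 1473 CPM, all above the Ahr+/+ libraries (804 to 1019 CPM).

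The genotypes were also compared directly. Without activation, 1 member was called at 3 h (beside 1.21% of all genes called) and none at 20 h (edgeR, DESeq2 and limma, beside 0.702% of all genes called by edgeR). At 20 h, 5 members had an unadjusted edgeR p below 0.05, a level at which the share of all genes is not given here. The member called at 3 h was the disulfide isomerase P4hb, at 643, 616, 609.7 and 714 CPM in Ahr+/+ and 486, 493, 507 and 527 CPM in Ahr-/- BMMs (-0.36 ± 0.0847, adjusted p = 0.00816). With hk S.E. at 3 h, 3 ER folding genes were lower in Ahr-/- BMMs, beside 2.83% of all genes called in either direction. Hsp90b1, the ER Hsp90, lay at 759, 760.4, 701 and 849 CPM in Ahr+/+ and 592, 534, 545 and 514 CPM in Ahr-/- BMMs (-0.49 ± 0.13, adjusted p = 0.00965). Pdia3 lay at 824, 863, 789 and 915 against 602, 564, 666 and 658 CPM (-0.45 ± 0.0953, adjusted p = 0.00187), and P4hb at 637, 643, 631 and 681 against 540.2, 492, 498 and 493 CPM (-0.36 ± 0.0848, adjusted p = 0.00474). None of these pairs overlapped. Without activation at 3 h there were 4 calls without Ahr+/+ library 3, 3 without Ahr-/- library 1 and 0 without any one of the others, and with hk S.E. there were 0 without Ahr+/+ library 2 or 4 or Ahr-/- library 2. P4hb without activation and Hsp90b1 with it each kept the call in 1 of 8 such fits.

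With hk S.E. at 20 h, 7 members were higher and 6 lower in Ahr-/- BMMs, beside 5.06% and 7.39% of all genes. The higher ones were cytosolic or mitochondrial, Hspa8 (0.89 ± 0.14), Hsp90ab1 (0.57 ± 0.14), Hsp90aa1 (0.50 ± 0.11), Hsph1 (0.50 ± 0.0856), Cct2 (0.29 ± 0.0667), Cct6a (0.33 ± 0.0842) and Hspe1 (0.51 ± 0.11). The lower ones were Hspa5 (-0.36 ± 0.0879) and 5 UPR genes, Ddit3 (-0.88 ± 0.15), Trib3 (-0.73 ± 0.17), Atf6 (-0.50 ± 0.10), Ern1 (-0.42 ± 0.10) and Xbp1 (-0.30 ± 0.0678). All 8 UPR genes, 5 of them called, had a log2 difference below 0 and all 8 CCT subunits, 2 of them called, one above 0, over a median of all genes of 0.013. With the identifier series as a covariate, described next, the signs of Atf4 (0.015) and Chac1 (0.18) turned and those of the CCT subunits did not. Ern1 lay at 133, 140.4, 130.4 and 117 CPM in Ahr+/+ and 89.2, 82.6, 113 and 103 CPM in Ahr-/- BMMs, and Hspe1 at 66.1, 60.9, 59.8 and 71.5 against 112, 96.3, 77.3 and 82.4 CPM, without overlap. DESeq2 called the same members, and besides them the ER folding gene Sdf2l1 higher (0.59, adjusted p = 0.00924) and Atf4 (-0.32) and Chac1 (-0.45) lower.

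These differences at 20 h were not separate from how the libraries were numbered. The identifiers in the sample labels fall into 4 series, and all Ahr-/- libraries at 20 h belong to one and all activated Ahr+/+ libraries at 20 h to another, so that series and genotype cannot be told apart within that comparison. With the series as a covariate estimated from all 64 libraries, 2 of the 13 calls were left (Xbp1 and Hspa8). Most of the log2 differences stayed as large while their standard errors grew, among them Hspa5 (-0.36 ± 0.12), Atf6 (-0.52 ± 0.14), Hsp90aa1 (0.49 ± 0.15), Hsp90ab1 (0.71 ± 0.19), Hsph1 (0.45 ± 0.12), Cct2 (0.34 ± 0.0910) and Hspe1 (0.50 ± 0.14). Those of Ddit3 (-0.39 ± 0.19) and Trib3 (-0.012 ± 0.20) shrank. The difference in activation response between genotypes at 20 h kept its calls with this covariate. Its values were -1.26 for Ddit3, -0.98 for Trib3, 0.99 for Hspa8, 0.81 for Hsp90ab1 and 0.67 for Hsp90aa1. Cct3 (0.42) and Cct7 (0.46) were called besides. The same covariate ended the calls of Dnajb9 (-0.81, adjusted p = 0.0721) and Asns (0.37, adjusted p = 0.0552) on activation in Ahr+/+ BMMs at 3 h. Leaving out 1 library ended the call of Hspa5 (activated Ahr+/+ library 4, -0.24, adjusted p = 0.0441, or Ahr-/- library 2, adjusted p = 0.0127), Ern1 (Ahr-/- library 1 or 2, adjusted p = 0.0102 and 0.017) and Hsp90ab1 (Ahr+/+ library 2 or Ahr-/- library 1 or 2, adjusted p from 0.0105 to 0.0149). With only the 2 groups in the fit, 5 members were called, with the Ahr-/- libraries numbered 1 and 2 left out 7, and with those numbered 3 and 4 left out 17. The shares of all genes called in these fits are not given here, so a shift of these members cannot be told from one of all genes. The 17 included ER folding genes called higher, Calr (0.80), Pdia4 (0.71), Sdf2l1 (0.96) and P4hb (0.34), and Dnajb9 called lower (-1.43). With libraries 1 and 2 left out instead, these ER folding genes were not called (0.029, 0.079, 0.17, -0.024 and -0.043, in that order).

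BaP and I3C were compared with DMSO under hk S.E. to ask what ligand exposure does to the same genes. No member was called with BaP in Ahr+/+ BMMs at 3 h (beside 0.0482% of all genes) or at 20 h (0.234%), nor with I3C at 3 h (0.131%) or 20 h (0.509%). In Ahr-/- BMMs none was called with BaP at 3 h (0.0275%) or 20 h (0.0138%), nor with I3C at 3 h (0.0206%) or 20 h (0.206%). BaP against I3C in Ahr+/+ BMMs gave no called member at 3 h (0.11%) or 20 h (0.282%). The difference in ligand response between genotypes gave none either, for BaP at 3 h (0.0138%) and 20 h (0%) and for I3C at 3 h (0%) and 20 h (0%). By edgeR, the members at an unadjusted p below 0.05 numbered 7 with BaP in Ahr+/+ BMMs at 20 h, 5 for the difference of that response between genotypes, and 0 to 2 in each of the other ligand comparisons. The share of all genes at that level is not given here, so nothing is read from these counts. DESeq2 called none in any of them, and limma called 1 member, for BaP against I3C in Ahr+/+ BMMs at 3 h. Fits with the replicate number as a block called some CCT subunits lower with BaP in Ahr+/+ BMMs at 20 h, as given next.

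The values with BaP in Ahr+/+ BMMs at 20 h lay slightly below those with DMSO. The log2 fold change was below 0 in 34 of 44 members, with a median of -0.11 and, over all genes, 0.00. For the 8 CCT subunits it ran from -0.26 to -0.10, and none of them was called in this fit, which has no replicate block. The replicate number, not stated to mark a mouse, was also tried as a block. Within genotype and time, that block called Cct2, Cct3, Cct5 and Cct7 lower (edgeR, adjusted p from 0.000604 to 0.00428). Within genotype alone it called Cct7 (edgeR, adjusted p = 0.00874). The share of all genes called with either block is not given here. Cct5, singled out after its values were seen, lay at 175, 182, 206 and 242 CPM with DMSO, 154, 151, 186 and 182 CPM with BaP and 168, 177, 208 and 199 CPM with I3C. These ranges overlapped, though each BaP library lay below the DMSO library of the same number. Without a block neither difference was called (BaP -0.26 ± 0.0893, adjusted p = 0.188, and I3C -0.10 ± 0.0893, adjusted p = 1). In Ahr-/- BMMs at 20 h, 13 of 44 members were below 0 with BaP, and the 8 CCT subunits ran from -0.019 to 0.047. With I3C in Ahr+/+ BMMs at 20 h, 25 of 44 were below 0, with a median of -0.0069. All members in a comparison share the same 4 DMSO libraries, so their common sign is not repeated evidence.

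Of the UPR genes at 20 h in Ahr+/+ BMMs, Trib3 lay at 233, 242, 207 and 240.4 CPM with BaP and 258, 285, 236 and 270.4 CPM with I3C, beside 278, 279.5, 248 and 303 CPM with DMSO. The BaP libraries all lay below the DMSO libraries and the I3C libraries overlapped them, and neither difference was called (BaP -0.27 ± 0.17, adjusted p = 0.622, and I3C -0.079 ± 0.17, adjusted p = 1). Hspa5 lay at 1270, 1327, 1446 and 1672 CPM with BaP and 1431, 1454, 1530 and 1720 CPM with I3C (-0.10 ± 0.0878, adjusted p = 0.765 and 0.0023 ± 0.0878, adjusted p = 1), both overlapping the DMSO libraries. Chac1 at 3 h had read counts of 3, 1, 1 and 3 with BaP and 0, 0, 0 and 0 with I3C in Ahr+/+ BMMs, and such counts give no usable fold.

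**Figure D5:**
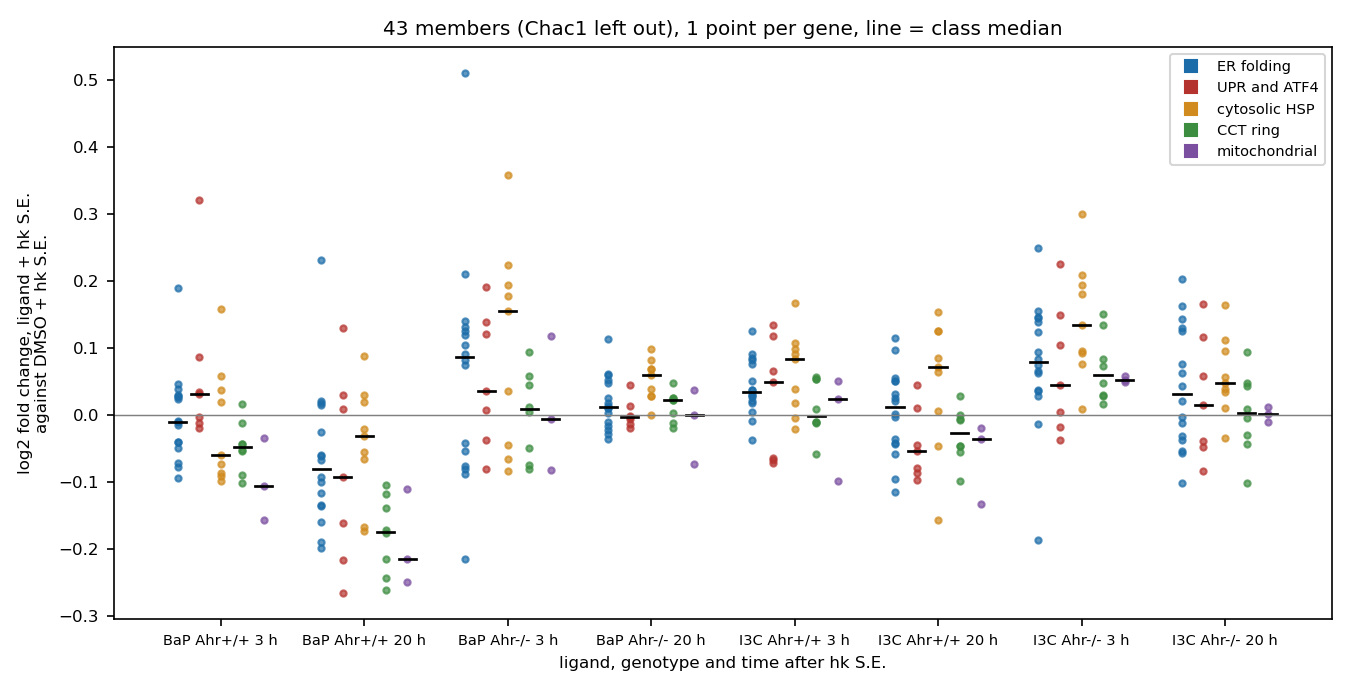
Log2 fold change of 43 members (all but Chac1, whose 3 h counts are near 0) with BaP or I3C against DMSO under hk S.E., in both genotypes and at both times, one point per member grouped by class. No point stands for a called member in the fit without a replicate block. With BaP in Ahr+/+ BMMs at 20 h the 8 CCT subunits lie between -0.26 and -0.10.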

How the data were processed

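Ahr+/+ and Ahr-/- BMMs (4 libraries per group, 64 in all) were sequenced by the authors from stranded poly(A) libraries. The authors deposited read counts per gene for each library (bcl2fastq 2.19.0.316, HISAT2 2.1.0 on mm10, HTSeq 0.9.1 with intersection-strict overlap on the reverse strand, GENCODE annotation) and a table of log2-scale variance-stabilized values, deposited for 14549 genes. Entries that name no gene (19.2% to 25.1% of a library, mostly multiply aligned reads) were left out. Of 55487 genes, 14537 passed filterByExpr with a minimum count of 10. Counts were scaled by TMM and fitted with edgeR 4.0.16 (R 4.3.3) as 16 group means over all 64 libraries (48 residual and 5.06 prior degrees of freedom), tested two-sided with the quasi-likelihood test, adjusted by Benjamini-Hochberg over all tested genes and called below 0.01. RPKM used the summed exon length of GENCODE M21. The script was tested on simulated data first.

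The members, the other pathway genes and the tests were chosen with earlier results of these data known. Values in every library were given for, in each of the 5 classes, the 2 members with the largest absolute log2 fold change called in Ahr+/+ BMMs on activation at each time. They were also given for up to 5 members called in each comparison of genotypes, ligands or interactions. In the other lists some called genes were given by fold change only, with counts for the rest. Alternatives were DESeq2 1.42.0, limma 3.58.1 on the deposited log2 values, DESeq2's size factors, no filter, a threshold of 0.05, fits on the compared groups alone, the library identifier series as a covariate, the replicate number as a block, and each library left out. Replicates came from 4 mice per genotype, and which libraries share a mouse was not given in the sources used here, so that p-values measure the spread between these libraries. Ddit3 is annotated at 2 loci, of which the one with counts was used. As a check of the shared replicate numbers, deviations from the group means were correlated between same-numbered libraries. All 24 pairs exceeded 0.1 in Ahr-/- BMMs at 20 h (0.13 to 0.64), and 11 to 21 of 24 did in each other genotype and time.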

Additional observations from a re-analysis of the deposited data

Results flagged for a closer look

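Of 240 tests of a single library against the other 3 of its group, 13 passed Dixon's 95% criterion, where chance gives about 1 in 20. For class medians, the library that stood apart was the fourth activated Ahr+/+ library at 20 h for ER folding (7.57 log2 CPM), the first unactivated Ahr-/- library at 3 h for UPR signaling (5.35 log2 CPM), and the first Ahr-/- library with I3C at 3 h for the mitochondrial chaperones (7.34 log2 CPM). For single members, the fourth activated Ahr+/+ library at 20 h stood apart for Hsp90b1 (760.0 CPM) and Hsp90aa1 (272.6 CPM). In activated Ahr-/- BMMs at 3 h the first library stood apart for P4hb (540.2 CPM) and Chac1 (0.06229 CPM), and the second for Dnaja1 (233.3 CPM). In unactivated Ahr-/- BMMs at 20 h the first library stood apart for Hsp90b1 (619.3 CPM), Hsph1 (50.36 CPM) and Hspe1 (48.41 CPM), and the second for Cct8 (134.6 CPM) and Hspa9 (175.3 CPM).

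The activation response at 20 h differed between the genotypes for 5 members (edgeR interaction, log2 fold change in Ahr-/- minus that in Ahr+/+ BMMs). The differences were -1.42 for Ddit3, -1.26 for Trib3, 0.96 for Hspa8, 0.72 for Hsp90ab1 and 0.63 for Hsp90aa1.

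The response differed between the times for 22 members in Ahr+/+ BMMs (log2 fold change at 20 h minus that at 3 h). The UPR genes gave 8.28 for Trib3, 7.58 for Chac1, 5.77 for Ddit3, 4.51 for Asns, 2.74 for Atf4, 2.55 for Ern1, 0.70 for Xbp1 and 0.51 for Atf6. The ER folding genes gave 3.37 for Dnajb9, 1.38 for Hyou1, 1.35 for Herpud1, 1.04 for Manf, 0.34 for Dnajc3 and -0.42 for Pdia3. The cytosolic chaperones gave 1.36 for Hsph1, -0.85 for Hspa8, -0.54 for Cct4, -0.48 for Dnaja1 and -0.41 for Cct5, and the mitochondrial ones 2.16 for Hspa9, 0.99 for Hspd1 and 0.56 for Hspe1.

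In Ahr-/- BMMs it differed for 18 members. The UPR genes gave 7.34 for Chac1, 6.78 for Trib3, 4.53 for Ddit3, 4.52 for Asns, 2.44 for Atf4, 2.03 for Ern1 and 0.48 for Xbp1. The ER folding genes gave 2.48 for Dnajb9, 1.26 for Hyou1, 0.87 for Pdia4, 0.68 for P4hb, 0.36 for Dnajc3 and -0.44 for Hspa5. The cytosolic chaperones gave 1.71 for Hsph1 and 0.42 for Cct7, and the mitochondrial ones 1.90 for Hspa9, 1.15 for Hspd1 and 1.04 for Hspe1.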

How the results depend on the processing

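For single members, 1939 of 2062 values recomputed for 102 results under the alternatives were still called in the same direction, 123 were not called and 0 were reversed. The number of members called on activation, and the numbers for its change with time, stayed within 1.5 times under every alternative run. Those for the genotypes did not, and the cause was not tested. The shares of all genes called under each alternative are not given here, so a shift of these members cannot be told from one of all genes. The replicate block was fitted within each genotype, so it took the spread between replicate numbers out of the error. For Ahr-/- against Ahr+/+ BMMs, which come from different mice, counts with either block can therefore be too high. The member calls in Ahr-/- against Ahr+/+ BMMs without activation at 3 h (1) became 8 with a replicate block, 15 with the block within time, and 0 without the filter, with the identifier series as covariate or with the groups compared alone. At 20 h (0) they became 3 with the block within time and 2 with the series. With hk S.E. at 3 h (3) they became 5 at a threshold of 0.05, 8 with the block, 11 with the block within time, 1 without the filter and 0 with the groups alone. With hk S.E. at 20 h (13) they became 20 at 0.05, 26 with the block, 28 with the block within time, 2 with the series, 5 with the groups alone and 7 without the Ahr-/- 20 h libraries numbered 1 and 2, an alternative chosen after seeing the data. For the difference in activation response between genotypes, the count at 3 h (0) became 1 with the block within time. At 20 h (5) it became 14 at 0.05, 15 with the block, 20 with the block within time, 3 without the filter, 3 with the groups alone, 2 without the Ahr-/- 20 h libraries numbered 1 and 2 and 8 without those numbered 3 and 4. BaP in Ahr+/+ BMMs at 20 h (0) became 1 with the block (Cct7, adjusted p = 0.00874) and 4 with the block within time, all CCT subunits and all lower with BaP (Cct2, Cct3, Cct5 and Cct7, adjusted p from 0.000604 to 0.00428), and BaP against I3C at 3 h (0) became 1 with limma on the log2 values. With 1 library left out, the range was 0 to 4 for the genotypes without activation and 0 to 3 with hk S.E. at 3 h, 10 to 15 with hk S.E. at 20 h, and 3 to 10 for the difference in response at 20 h.

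The shared replicate numbers are not stated to mark a mouse. Outside Ahr-/- BMMs at 20 h not every same-numbered pair correlated above 0.1, although 3 of the 4 between DMSO and BaP with hk S.E. in Ahr+/+ BMMs at 20 h did (0.0988 to 0.23), and a library correlated best with its own number in 27 to 32 of 48 checks per genotype and time. Each check chose among the 4 libraries of another group, so own-number matches were more frequent than an even draw would give. On activation the replicate block gave 30 instead of 24 member calls in Ahr+/+ BMMs at 3 h, 36 instead of 30 at 20 h, 31 instead of 26 in Ahr-/- BMMs at 3 h and 41 instead of 36 at 20 h. All Ahr-/- libraries at 20 h carry identifiers of 1 series, so that series and genotype are partly confounded there, and Chac1 at 3 h lies at the limit of the counts.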
